A study of Mus musculus with 24 samples.

Results

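Control forelimb buds of the mouse embryo at E10.5 were compared for how many ribosome footprints each transcript carried relative to its RNA. The members are the 6 libraries labelled Rps6 WT, Trp53 WT, of 24 libraries in the series: 3 libraries of ribosome-protected fragments (RPF, or footprints) and 3 of total RNA depleted of ribosomal RNA. They were chosen by genotype and library kind alone. The control genotype is Rps6lox/+;Trp53+/+, that is, embryos with 1 floxed allele of Rps6, a gene for a protein of the small ribosomal subunit, no Cre and intact Trp53, the gene for p53. The other genotypes are Prx1Cre;Rps6lox/+;Trp53+/+ (Rps6 het, Trp53 WT), Rps6lox/+;Trp53-/- (Rps6 WT, Trp53 null) and Prx1Cre;Rps6lox/+;Trp53-/- (Rps6 het, Trp53 null), with 6 libraries each. All groups thus carry the floxed allele, and Prx1Cre deletes it in limb bud mesenchyme and not in every cell of the limb. Each replicate is a pool made from the forelimbs of 2 embryos, and each pool gave both an RPF and an RNA library, so a control pool here means a pair of libraries.

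A ribosome that is translating an mRNA shields a short stretch of it from RNase, and sequencing these stretches counts the ribosomes on each coding sequence. Footprints relative to RNA are commonly used as a measure of how heavily a message is translated, called translational efficiency. Messages differ in this respect through the rate at which ribosomes start and through structures or short upstream reading frames before the start codon, and non-coding RNAs carry few or no footprints. In the deposited table footprints cover the coding sequence, while RNA reads cover the whole transcript, untranslated parts included. The ratio of the 2 levels therefore mixes footprint density with the share of the transcript that codes, and these cannot be told apart here because lengths were not used.

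The table names transcripts by Ensembl ID. Of 21960 IDs, 0 matched the gene name tables used here, so results are given for classes of transcripts, and only the 2 most extreme IDs in each direction are printed. Rps6, Trp53 and the markers of limb mesenchyme, ectoderm and blood were for the same reason not analysed here, and the labelled tissue was not checked against them. Control RNA libraries held 22186190, 19847588 and 26317954 counts in pools 1 to 3, and the RPF libraries 12872452, 8939697 and 16835045. Levels are given as counts per 1000000 (CPM) of the sum over the transcripts tested times its TMM factor over the 6 libraries. A log2 ratio of 0 then marks the trimmed mean transcript. The smallest level taken as detectable, 3 counts, came to at most 0.149 CPM in an RNA library and 0.362 CPM in an RPF library.

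Most of the RNA detected in the control limb carried footprints. Of the 21960 rows, 15238 had counts in both library kinds, 4630 had RNA counts and no footprint in any of the 3 pools, 248 had footprints and no RNA count, and 1844 were at 0 in all 6 libraries. A minimum count of 10, applied by edgeR's filterByExpr to each library kind apart, was passed in both kinds by 11602 transcripts. These held 99.9% of the footprint counts in each RPF library and from 94.2% to 95.7% of RNA counts. A further 2053 transcripts passed in RNA alone. They held 4.25% to 5.68% of RNA counts and 0.0537% to 0.0625% of footprints.

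A set of well-counted RNAs had no footprints. With a mean of at least 100 RNA counts per library, 302 transcripts had 0 footprints in the 3 control pools, and 290 of these had 0 footprints in the other 9 pools as well. Their RNA levels ran from 4.32 to 18876 CPM, with a median of 13.3 CPM. Taking 3 counts over the 3 RPF libraries as the floor, 0.0833 CPM, their footprint level was at least 51.9-fold lower than their RNA level, with a median bound of 160-fold. Of the 10 most abundant rows in RNA 3 had no footprint, and of the 1000 most abundant 16 had none. These RNAs thus had no footprint counted on coding sequence in any control pool. A row without an annotated coding sequence would hold 0 footprints at any depth. Which of the 302 have one was not known here, so the fold bounds are not measures of translation. Such limits cover counting error only.

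Footprints and RNA were spread over different numbers of transcripts. The 662 transcripts with most footprints held 50% of the mean footprint counts, whereas 965 rows were needed for 50% of RNA. For 90% the numbers were 4557 and 5465. At the very top the order was the other way: the 10 highest rows of a library held 4.59% to 4.79% of footprints and 5.17% to 6.13% of RNA counts. The rankings overlapped in part: of the 100 highest rows in RNA 63 were among the 100 highest in footprints, and of the 1000 highest 702. Ranks by counts also follow length, so they describe where the reads lay and not which genes were most expressed.

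For transcripts that passed in both kinds, footprint and RNA levels rose together. Across the 11602 transcripts mean log2 levels in the 2 library kinds had a Pearson's r of 0.892 and a Spearman's rho of 0.883, as a description across transcripts, which share libraries and are not independent replicates. Within a library kind the pools correlated far more tightly, at r = 0.995 for each pair of RPF libraries and 0.997 for each pair of RNA libraries. An RPF library and the RNA library of its own pool correlated at 0.888 to 0.894. RNA and footprint levels thus correlated less closely with each other than did repeated pools of a library kind. The log2 level had an SD over transcripts of 2.24 in RPF and 2.12 in RNA, and the span from the 5th to the 95th percentile was 180-fold in RPF and 134-fold in RNA.

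**Figure D1:**
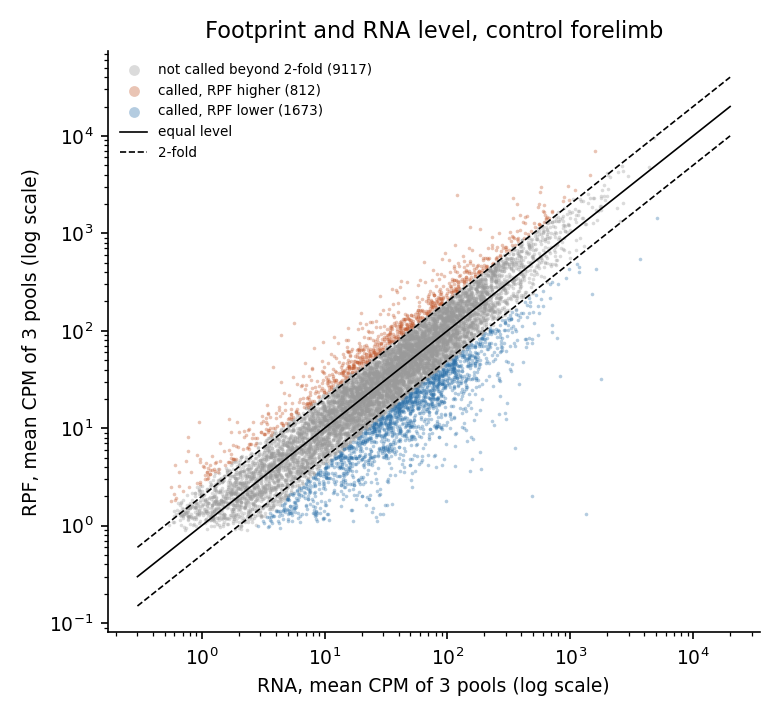
Mean RPF level against mean RNA level in CPM, both on log scales, for each of 11602 transcripts over 3 control pools, with the line of equal level and lines 2-fold away from it. The 812 transcripts called beyond 2-fold higher in RPF lie in a band above the cloud over most of the RNA range, and the 1673 called lower reach farther from it.

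The footprint to RNA ratio covered a wide range. The middle 50% of transcripts lay between log2 ratios of −0.71 and 0.55, a 2.4-fold span, and the median was −0.02. From the 5th percentile, −1.99, to the 95th, 1.30, the span was 9.74-fold, and the extremes were −10.02 and 4.39. The distribution was uneven, with a longer tail on the side of few footprints (skewness −0.78). The SD over transcripts was 1.03, while the median SD of a transcript's ratio between the 3 pools was 0.092. Each pool gave the same shape: the 5th to 95th percentile span was 9.42-fold in pool 1, 10.1-fold in pool 2 and 9.84-fold in pool 3. Ratios of single transcripts correlated between pools at r = 0.967 to 0.974. Of the 500 transcripts with the highest ratio in a pool, 369 were among the 500 highest in all 3 pools, and of the 500 lowest 405 were.

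**Figure D2:**
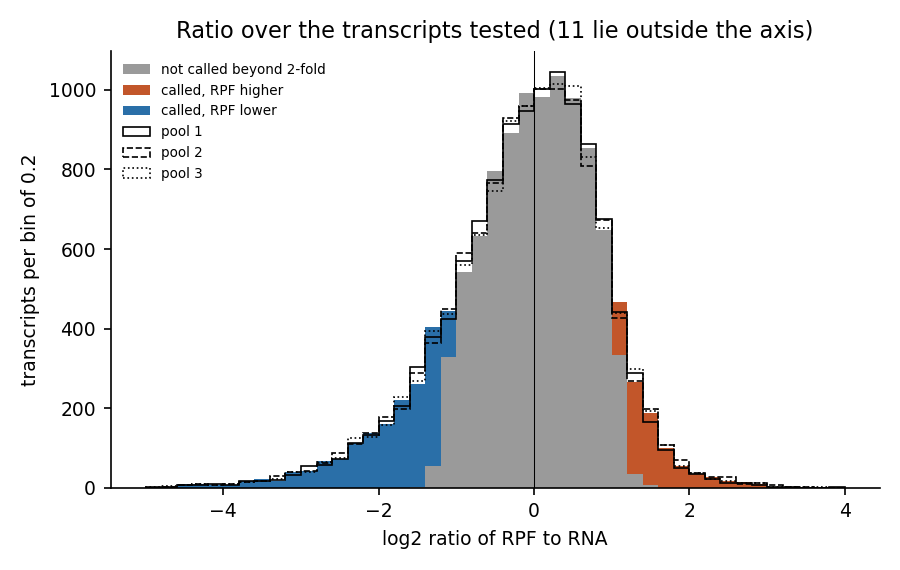
Number of transcripts per bin of 0.2 in the log2 ratio of RPF to RNA, with filled bars for the estimate over 3 control pools and outlines for each pool. The 3 outlines nearly coincide, the left tail is longer than the right, and 11 transcripts lie outside the axis.

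Most single ratios differed from that of the trimmed mean transcript by more than the spread between pools. By edgeR's quasi-likelihood F test on the counts, with Benjamini-Hochberg adjustment, 9700 of 11602 transcripts (83.6%) were called at an adjusted p under 0.05. RPF was higher for 4724 (40.7%) and lower for 4976 (42.9%). In 9752 transcripts (84.1%) the 3 RPF values and the 3 RNA values did not overlap, which is close to the share called. The 1902 transcripts not called had fewer footprints, with a median of 138 counts per library against 393 for those called. The split depends on where 0 is set. With TMM within each library kind, where the zero is an equal share of the library total, the median ratio was −0.23, and RPF was higher for 3668 and lower for 5940 of 9608 calls. The size of a ratio relative to other transcripts is free of that choice.

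A stricter test asked which ratios lay beyond 2-fold of the trimmed mean transcript (edgeR glmTreat with a log2 threshold of 1, adjusted p under 0.05). It called 2485 transcripts (21.4%), 812 with more footprints than RNA (7.00%) and 1673 with fewer (14.4%). In all 2485 the 3 RPF values lay on one side of the 3 RNA values. With TMM within each library kind the numbers were 505 higher and 2156 lower, so the lower side held more calls under both scalings. By value alone, 1135, 1196 and 1203 transcripts had a ratio above 2-fold in pools 1, 2 and 3, and 2039, 2061 and 2060 had one below. Beyond 4-fold, 93, 125 and 111 were higher and 556, 582 and 574 lower.

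The 2 classes held unlike shares of the counts, in directions that their definition fixes. The 812 called higher took 18.2% ± 0.0737 (SD, n = 3) of footprint counts and 6.88% ± 0.180 of RNA counts. The 1673 called lower took 4.06% ± 0.0509 of footprints and 15.7% ± 0.249 of RNA. With TMM within each library kind, the 505 called higher took 12.6% ± 0.0790 of footprints and 4.16% ± 0.127 of RNA, and the 2156 called lower took 5.61% ± 0.0564 and 19.1% ± 0.268. Median levels among the 812 were 86.1 CPM in RPF and 30.1 CPM in RNA, and among the 1673 they were 12.6 CPM in RPF and 48.8 CPM in RNA. A transcript must pass the count minimum in footprints to be tested, so one with few footprints for its RNA enters only if its RNA level is high enough.

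The shares were also taken by size of ratio. A total of 8354 transcripts, 72.0% of those tested, lay within 2-fold and held 72.8% ± 0.0794 of footprints and 68.7% ± 0.406 of RNA. In the range from 2-fold to 4-fold higher were 1077 transcripts, with 18.8% of footprints and 8.34% of RNA. Only 103 were 4-fold to 8-fold higher, and 7 were over 8-fold higher. On the other side 1489 were 2-fold to 4-fold lower, 433 were 4-fold to 8-fold lower and 139 were over 8-fold lower. The last of these held 0.116% of footprints and 1.87% of RNA. Of the transcripts within 2-fold, 92.4% were so in each of the 3 pools, and in the other classes 61.2% to 75.5% kept their class in each pool. The classes are defined by the ratio itself, so the direction of these shares is fixed by construction and only their sizes are measured.

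**Figure D3:**
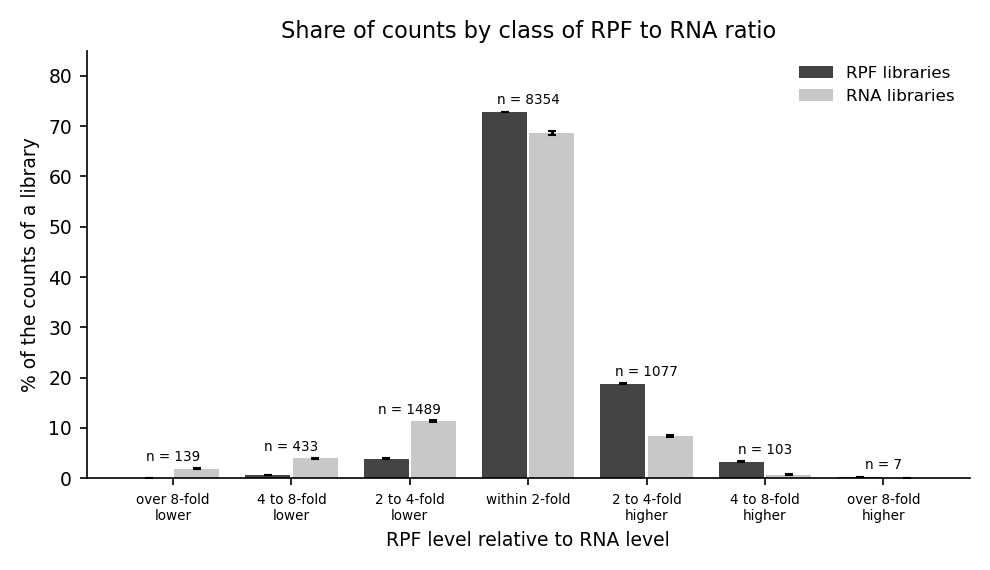
Share of a library's counts, in %, held by each class of RPF to RNA ratio, as mean and SD over the 3 RPF and the 3 RNA control libraries, with the number of transcripts above the bars. The class within 2-fold holds 72.8% of footprints and 68.7% of RNA, and the class 2-fold to 4-fold higher holds 18.8% and 8.34%.

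Apart from the lowest and highest RNA levels, the median ratio changed little with RNA abundance. To avoid binning a ratio on its own RNA values, transcripts were divided into 10 bins by their RNA level in the 3 Rps6 WT, Trp53 null pools, which share no library with the control. The median control ratio was 0.31 in the lowest bin (median RNA level 2.05 CPM), between −0.17 and −0.05 in the next 8 bins, and 0.17 in the highest (286 CPM). These medians varied by an SD of at most 0.019 between the 3 control pools, so the lowest and highest bins stood apart from the others by more than the spread between pools. Over all transcripts Spearman's rho of the ratio with that RNA level was −0.06, as a description. In the lowest bin a transcript with few footprints fails the count minimum and is not tested, and 1.12% of that bin was called lower against 11.2% to 19.7% in the other bins. The share called higher was 5.6% to 8.87% over the 10 bins. In the highest bin the SD of the ratio over transcripts was 1.19, with a median SD between pools of 0.042. In the lowest bin these values were 0.78 and 0.290, so low counts blurred single ratios there.

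The 2 highest and 2 lowest ratios among well-counted transcripts show the size of the extremes. They were taken from 2350 transcripts called beyond 2-fold, without overlap and with at least 100 RNA counts per library on average. ENSMUST00000029515.4 had RPF levels of 123, 96.1 and 137 CPM in pools 1 to 3 and RNA levels of 6.05, 3.84 and 6.97 CPM. Each footprint value exceeded each RNA value, and pool 2 was lowest in both kinds. The fitted log2 ratio was 4.39, with an SD of 0.18 over the 3 pools, a 20.9-fold higher level in RPF (edgeR glmTreat adjusted p = 2.86e-12). ENSMUST00000106251.9 was as extreme and far more abundant, with 2461, 2517 and 2470 CPM in RPF and 123, 109 and 124 CPM in RNA. Its footprint level varied little between pools. The fitted log2 ratio was 4.39, with an SD of 0.12 over the 3 pools and an edgeR glmTreat adjusted p = 1.22e-17.

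ENSMUST00000228850.1 lay at the other end, with 1.51, 1.33 and 1.07 CPM in RPF and 1329, 1325 and 1349 CPM in RNA. These RPF levels rest on 18, 11 and 17 footprint counts, against 30080, 26605 and 36351 RNA counts. Footprints were 1039-fold lower (fitted log2 ratio −10.02, edgeR glmTreat adjusted p = 2.05e-20), and the ratios of single pools, −9.67, −9.85 and −10.15 with a prior count of 2, had an SD of 0.24. ENSMUST00000087714.5 had 2.35, 2.17 and 1.58 CPM in RPF, from 28, 18 and 25 counts, and 441, 486 and 548 CPM in RNA. Its fitted log2 ratio was −7.96 (edgeR glmTreat adjusted p = 4.36e-16), and the single pools, at −7.48, −7.73 and −8.34, had an SD of 0.44. For both transcripts footprints were present in every pool but close to the count minimum of 10. Reads shared with paralogs, pseudogenes or overlapping transcripts were not tested for these 4.

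**Figure D4:**
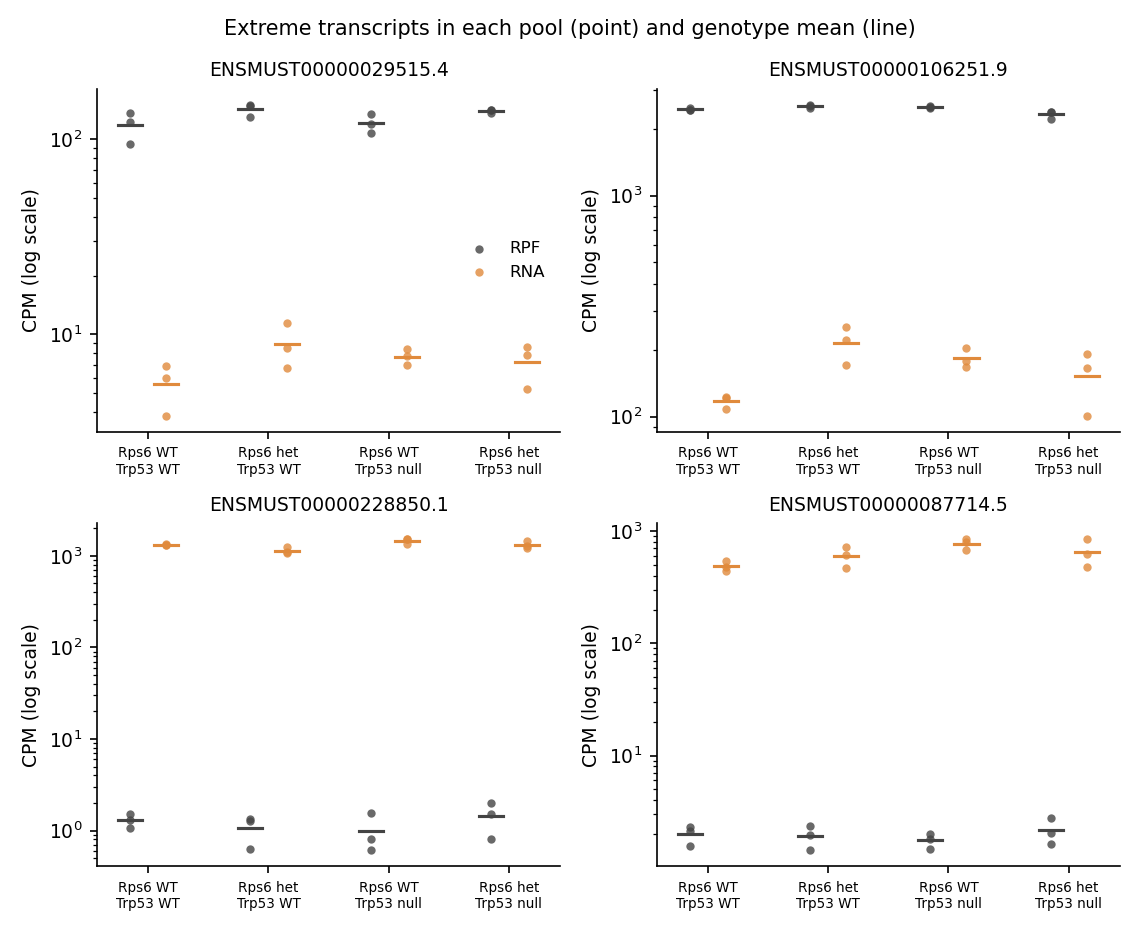
RPF and RNA level in CPM (log scale) of the 4 extreme transcripts in each of 3 pools per genotype (points) and their mean (line), on totals scaled over all 24 libraries. In every genotype the RPF and RNA values of each transcript stay apart, and the RNA of ENSMUST00000106251.9 varies from 100 to 254 CPM while its RPF level stays between 2218 and 2582 CPM.

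The control ratios recurred in the other 3 genotypes, whose pools are separate embryos. The coding share of a transcript enters its ratio alike in every genotype, so part of this likeness is fixed by what was counted. Fitted in the same way on the same transcripts, the ratio had an SD over transcripts of 1.00 in each of Rps6 het, Trp53 WT and Rps6 WT, Trp53 null, and 1.02 in Rps6 het, Trp53 null. It correlated with the control ratio at r = 0.981, 0.986 and 0.987 in that order, across transcripts. The median absolute difference from control was 0.10, 0.09 and 0.08 on the log2 scale, and 95% of the absolute differences were below 0.40, 0.35 and 0.34. Of the 2485 transcripts called beyond 2-fold in control, 82.0%, 85.1% and 86.4% were called in the same direction in these genotypes, and these made up 93.1%, 94.5% and 93.9% of the calls there. Over all 11602 transcripts, 2189, 2238 and 2285 were called beyond 2-fold in these genotypes. There were 0 called in opposite directions in each of the 3. By value, 540 of the 812 transcripts with many footprints and 1386 of the 1673 with few were beyond 2-fold the same way in each of the 9 other pools. A wider count shows the sign alone: 808 of 812 and 1673 of 1673 lay on the same side of 0 in all 9. Ratios beyond 2-fold lie far from 0 relative to most differences between genotypes, so a kept sign is largely given by the choice.

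The difference in ratio between each genotype and control was tested in one edgeR quasi-likelihood model over all 24 libraries, in which the length of a transcript cancels. These 3 tests share the control libraries. Against control, the ratio was called different for 189 of 12116 transcripts (1.56%) in Rps6 het, Trp53 WT, 74 higher and 115 lower. It was called for 4 (0.0330%), all higher, in Rps6 het, Trp53 null. In Rps6 WT, Trp53 null it was called for 0 (0%). There 714 of 12116 had an unadjusted edgeR p under 0.05, against 1387 in Rps6 het, Trp53 WT and 547 in Rps6 het, Trp53 null. Where no ratio differs, a share of 0.05 of the transcripts is expected under that p. The number for Rps6 het, Trp53 null lay below that share and that for Rps6 WT, Trp53 null little above it. Only Rps6 het, Trp53 WT lay well above it. For Rps6 WT, Trp53 null the DESeq2 Wald test called 0 as well, but with no filter on low counts edgeR called 12, all lower. The number for Rps6 het, Trp53 WT was 414 with the pool as a block. It was 89 without control pool 2, 76 without control pool 3, and 97 and 106 without pools 1 and 3 of that genotype. For Rps6 het, Trp53 null it was 23 with the pool as a block, 1 without control pool 1, control pool 3 or its own pool 2, 8 without its own pool 1, 20 with no filter and 35 by the DESeq2 Wald test. In the pools of Rps6 het, Trp53 WT the RNA of the 812 footprint-rich transcripts had a median log2 level 0.21, 0.09 and 0.20 above control. The same medians were 0.18, 0.08 and 0.06 in Rps6 WT, Trp53 null and 0.14, 0.12 and −0.05 in Rps6 het, Trp53 null. That class was chosen on control values, so RNA above control is in part built into the choice. Its part in the calls was not tested. In these bulk libraries fewer cells of a type and less RNA per cell cannot be told apart, and a ratio is an average over all cells of the limb.

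The 4 extreme transcripts were chosen on control values, so a ratio closer to 0 in another genotype is in part built into the choice, and their values there are given as a description. On totals scaled over all 24 libraries, the RNA of ENSMUST00000106251.9 was 122, 108 and 123 CPM in the control pools. In Rps6 het, Trp53 WT it was 223, 171 and 254 CPM. The pools of Rps6 WT, Trp53 null gave 205, 179 and 168 CPM, and those of Rps6 het, Trp53 null gave 165, 191 and 100 CPM. The last of these groups overlapped control and the others did not. Its RPF level was 2440, 2496 and 2449 CPM in control and lay between 2218 and 2582 CPM over all 12 pools. The log2 ratio accordingly had a mean of 4.39 ± 0.12 (SD, n = 3) in control, 3.57 ± 0.32 in Rps6 het, Trp53 WT, 3.77 ± 0.16 in Rps6 WT, Trp53 null and 3.98 ± 0.53 in Rps6 het, Trp53 null. ENSMUST00000228850.1 had mean log2 ratios of −9.95, −10.45 and −9.79 in the other genotypes, in the same order, and −9.88 in control. For ENSMUST00000087714.5 they were −8.21, −8.68 and −8.15, farther from 0 than the −7.84 of control. For ENSMUST00000029515.4 they were 4.02, 3.95 and 4.29, against 4.40 in control. By the edgeR test of the difference, none of these 3 transcripts was called in any genotype.

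In the footprint-rich class RNA varied more between pools than RPF did. For the 812 transcripts with many footprints, the median SD of log2 level between pools of one genotype was 0.126 in RNA and 0.069 in RPF, taken over the 9 pools that did not enter the choice of the class. RNA had the larger SD for 82.0% of them. For the 9117 transcripts not called beyond 2-fold the medians were 0.089 in RNA and 0.096 in RPF, and RNA had the larger SD for 42.2%. Footprint-poor transcripts had medians of 0.088 in RNA and 0.136 in RPF, and RNA had the larger SD for 21.4%. Among transcripts with a mean of at least 1000 counts in each kind, where depth differs less, the share with a larger RNA SD was 84.4% for 327 transcripts of the first class, 60.8% for 2234 of the second and 63.3% for 90 of the third. The footprint-poor class thus had a lower share than the transcripts not called over all counts, but not at these higher counts. These shares are descriptions, with no test.

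The RNA of the footprint-rich class moved as a group from pool to pool. Relative to the control mean, its median log2 RNA level was 0.04, −0.02 and −0.02 in the 3 control pools, 0.21, 0.09 and 0.20 in Rps6 het, Trp53 WT, 0.18, 0.08 and 0.06 in Rps6 WT, Trp53 null and 0.14, 0.12 and −0.05 in Rps6 het, Trp53 null. The RPF medians of the same transcripts spanned at most 0.019 between pools of a genotype, against 0.057 to 0.188 for RNA. The RNA of the footprint-poor class moved less, with medians that spanned 0.020 to 0.114 between pools of a genotype. In pool 3 of Rps6 het, Trp53 null, where the RNA median of the footprint-rich class was lowest, that of the footprint-poor class was highest, at 0.03. The classes did not move in opposite ways throughout. From pool 1 to pool 2 of Rps6 WT, Trp53 null both fell, from 0.18 to 0.08 and from −0.09 to −0.10. The footprint-rich class was chosen on control values, so a higher RNA level outside the control is in part built into the choice, and only the spread within a genotype is read here. Which feature of the pools or of the RNA libraries goes with this spread was not tested.

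**Figure D5:**
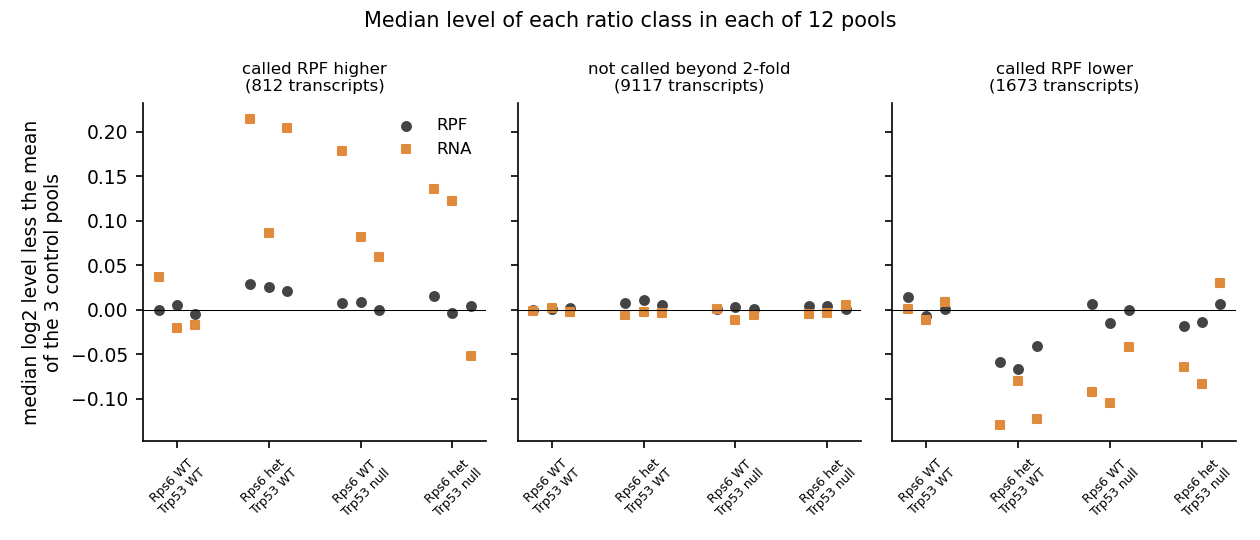
Median log2 level of 3 classes of transcripts, less their mean in the 3 control pools, for the RPF and the RNA library of each of 12 pools by genotype. In the footprint-rich class the RNA medians lie between −0.05 and 0.21, while its RPF medians stay between −0.004 and 0.029.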

How the data were processed

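The authors deposited 1 table of raw counts per transcript for 24 libraries, with RPF counts on coding sequence and RNA counts on the whole transcript, per the name of the table. Bowtie2, UMI-tools and the builds GRCm38 and mm10 are named in the submitters' processing notes; the counting tool, annotation release and read filters are not given in the sources used here. The tests were those of edgeR 4.0.16 (R 4.3.3): glmQLFit with glmQLFTest, and glmTreat at a log2 threshold of 1. The model held library kind alone, on the 6 control libraries. Transcripts had to pass filterByExpr (minimum count 10, minimum total 15) in each library kind apart. TMM factors were taken over the 6 libraries on totals of the transcripts tested, and log2 levels used a prior count of 2. Ratios between genotypes used all 24 libraries with TMM within each kind. P-values were adjusted by Benjamini-Hochberg over all transcripts tested, and errors of named ratios are SDs over pools. The alternatives used DESeq2 1.42.0 and limma 3.58.1. The fits were also run on simulated counts in which few transcripts differed, and the outcome is not given here.

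The RPF and RNA library of a replicate number come from the same embryos, per the labels' protocols. Their deviations from the group means correlated across transcripts at 0.211, 0.092 and 0.335 in the 3 control pools, against −0.252 to 0.039 for unlike pools. Deviations of a kind cancel over its 3 pools, so positive values within pools lower those for unlike pools, which are no independent baseline. Replicates of a kind differed by more than counting noise (chi-square per degree of freedom of 2.17 to 4.87), so all 3 were counted. The named transcripts are the 2 highest and 2 lowest ratios under the rule given in the text. Gene lists and marker lists were drawn up but not run, because no ID matched a name. The comparison and lists were chosen with earlier results of these data known.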

Additional observations from a re-analysis of the deposited data

Results flagged for a closer look

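The footprint to RNA ratio differed between Rps6 het, Trp53 WT and control for 189 transcripts by the test of the difference itself, with a median absolute log2 difference of 0.38 among them. Between Rps6 het, Trp53 null and control it differed for 4 transcripts by the same test. That test did not pair the libraries of a pool, and with the pool as a block the numbers were 414 and 23. Without 1 of the 6 pools compared, the 189 became 76 to 237 and the 4 became 1 to 8.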

How the results depend on the processing

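The number of transcripts whose ratio differed from the trimmed mean transcript stayed within 1.5 times of 9700 in all 13 alternatives, at 7699 to 12661. The lowest count, of 8803 transcripts tested, came from a minimum mean of 100 counts in each kind, chosen after seeing the data. The highest, of 20116 tested, came without a filter on low counts. The share called was lower there than for the 11602 tested in the main fit. The number beyond 2-fold was 2485 and stayed within 1.5 times in 11 of 13 alternatives. It was 4694 without a filter on low counts and 3789 where passing the filter in 1 kind was enough. These settings test more transcripts, many with few or no footprints. Leaving out 1 pool gave 2310 to 2405. With the pool as a replicate block, pairing the libraries of a pool, the numbers were 9979 and 2586. The 4 named ratios kept direction and call in each alternative that tested them, over ranges of 4.18 to 4.47, 4.18 to 4.44, −10.22 to −9.84 and −8.17 to −7.66. The SD of the ratio was 0.936 to 2.47 and the correlation of RPF and RNA 0.833 to 0.933 over the alternatives.

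Differences between genotypes depended more on the fit. For Rps6 het, Trp53 WT against control the count of 189 became 414 with the replicate block and 76 to 237 without 1 of the 6 pools, where leaving out a pool of the other genotype was chosen after seeing the data. For Rps6 het, Trp53 null the count of 4 became 23 with the replicate block, 20 without a filter, 35 by the DESeq2 Wald test and 1 to 8 without 1 of the 6 pools. For Rps6 WT, Trp53 null it was 12 in place of 0 without a filter, and 0 in each other alternative. The cause was not tested. The replicate block changed no call of a named ratio in control. A ratio divided by coding and transcript length was not run, because no lengths matched the IDs.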

Other observations

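A small class passed the count minimum in footprints and not in RNA. It held 54 transcripts, with means of 10.3 to 35.7 footprint counts per library (median 16.3) and 2 to 17.7 RNA counts. They took 0.00698% to 0.00772% of the footprints of a control library. Among the 248 rows with footprints and no RNA count, the highest mean was 4.33 footprint counts per library.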
